A study of Danio rerio with 23 samples.

Results

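The genes of prohormone processing and of the secretory granule were followed through 23 RNA-seq libraries of zebrafish cells. Peptide hormones are made as long precursors that are cut and trimmed inside dense-core granules before release. The prohormone convertases pcsk1 and pcsk2 cut the precursor at pairs of basic residues, the carboxypeptidase cpe removes these residues from the new ends, and pam amidates the peptide. The granins chga, scg2b and scg3 are packed with the hormones and take part in granule formation, scg5 (7B2) is the chaperone of pcsk2, and scgn (secretagogin) is a calcium-binding protein of endocrine cells. In enteroendocrine cells (EECs), the hormone cells of the gut, these genes belong to the differentiated state, whereas transcription factors such as neurod1, pax4 and insm1 act earlier.

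The members were chosen by name as convertases, granins and peptide-processing genes. Of the 10 symbols, 9 were matched to 10 gene IDs among 31902 counted features. The symbol scg5 had 2 IDs (ENSDARG00000032126 and ENSDARG00000077045), and scg2a was not analysed here. The other IDs are ENSDARG00000002600 (pcsk1), ENSDARG00000019451 (pcsk2), ENSDARG00000055874 (cpe), ENSDARG00000100170 (pam), ENSDARG00000008829 (chga), ENSDARG00000038574 (scg2b), ENSDARG00000086288 (scg3) and ENSDARG00000058732 (scgn).

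The gain-of-function experiment comprised 16 libraries of dsred-positive endodermal cells, sorted from the trunks of pooled Tg(sox17:dsred) embryos of the AB strain at 52 hpf. All these embryos received heat shocks at 38 and 48 hpf. Controls carried no further transgene (n = 3). The other groups carried a transgene for Ascl1a (n = 3), Neurod1 (n = 4), Neurod1 without the ultra-conserved element (Neurod1 ΔUCE, n = 3) or Neurod1 without the larger conserved domain that holds this element (Neurod1 ΔECD, n = 3). The hsp70l promoter that drives them is ubiquitous, so that the factor is made in all cells and not only in secretory precursors. The second experiment comprised GFP-positive cells sorted from the dissected gut of pax6b:GFP larvae at 4 dpf, without heat shock, from wild-type larvae (n = 3) and from neurod1ΔUCE homozygous mutants (n = 4), whose endogenous neurod1 lacks the element. Each library pooled many embryos or larvae, and libraries of 1 group are separate preparations. Total counts ranged from 8364374 to 22301304 per library, and 3 counts, taken as the floor of detection, stood at 0.135 to 0.359 CPM (counts scaled by library size).

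The labelled cell types were checked with their markers. The 10 endoderm markers had counts in each of the 23 libraries. The summed level of 15 gut hormone genes was 26977 to 64903 CPM in wild-type EECs and 11.3 to 550.4 CPM in the endodermal libraries. Control replicate 3 stood apart from the other endodermal libraries. Its 12 neuron markers summed to 358.4 CPM, against 13.1 to 114.1 CPM in the other 15 libraries, and its 10 muscle markers to 22826 CPM, against 87.9 to 13606 CPM. The library with 13606 CPM of muscle markers was Neurod1 replicate 2. The genes of granule docking and exocytosis, many of which neurons also use, summed to 329.0 CPM in control replicate 3. In the other endodermal libraries they summed to at most 172.2 CPM. Control replicate 3 was also the highest control for 8 of the 9 member IDs detected in controls, the exception being pam. Counts and medians against controls are therefore given with and without this library, as are fold changes of scg3, pcsk1 and scgn. For pcsk2 the fold changes without it are given. The part of neurons or muscle in the member levels was not tested. In such bulk libraries, fewer cells of a type and less RNA per cell cannot be told apart.

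**Figure D1:**
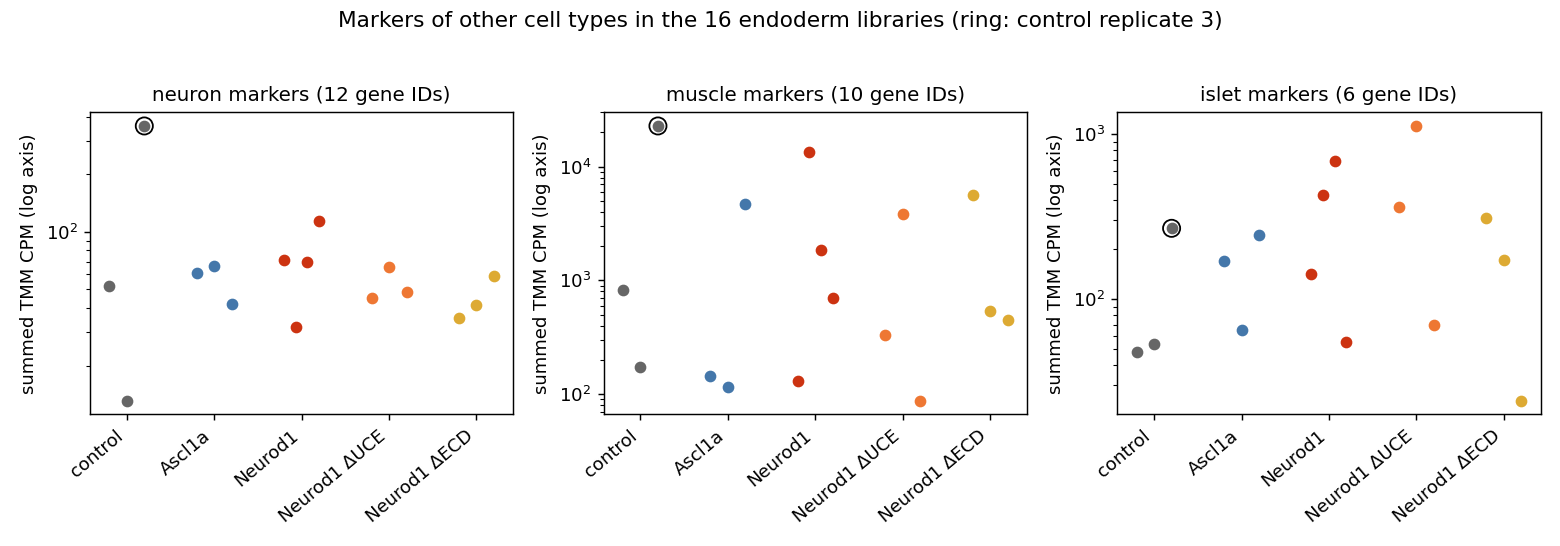
Summed level of markers of neurons, muscle and pancreatic islet in each of the 16 endodermal libraries (TMM-normalized CPM, log axis), with 1 point per library and a ring around control replicate 3. Control replicate 3 is the highest library for neuron (358.4 CPM) and muscle (22826 CPM) markers, while islet markers range from 24.3 to 1118 CPM over the groups.

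The first question was whether the transgenes started the secretory machinery together with the transcription factors. Levels are given as TMM-normalized CPM, in the order of the replicate numbers. The granin scg3 was at 3.72, 1.65 and 15.7 CPM in controls (mean 7.01 ± 7.56 SD, n = 3). It was at 187, 61.6, 101 and 181 CPM with Neurod1 (mean 132.8 ± 61.8 SD, n = 4). The lowest Neurod1 library thus stood above the highest control, and the ratio of the means was 18.9. In edgeR's quasi-likelihood test the log2 fold change was 4.23 (SE 0.79, 95% interval 2.55 to 5.91), with an FDR of 0.142, which missed the threshold of 0.1. With DESeq2 the FDR was 2.48e-06, and with limma voom it was 0.0861. Without control replicate 3 the log2 fold change was 5.60 (FDR 0.0685), and without Neurod1 replicate 2 it was 4.47 (FDR 0.0966). Without control replicate 1 it was 3.92 (FDR 1.00), and this range, from 2.48e-06 to 1.00, spans the FDRs of scg3 over all alternatives.

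With Neurod1 ΔUCE, scg3 was at 63.5, 116 and 35.0 CPM (mean 71.5 ± 41.0 SD, n = 3), also above all controls. The log2 fold change was 3.31 (SE 0.78, edgeR FDR 0.197, DESeq2 FDR 0.00311). With Neurod1 ΔECD it was at 37.1, 25.7 and 19.7 CPM (mean 27.5 ± 8.84 SD, n = 3), which again did not overlap with controls (log2 fold change 1.90, SE 0.74, 95% interval 0.34 to 3.46, edgeR FDR 0.750). With Ascl1a it was at 12.2, 2.72 and 17.1 CPM (mean 10.7 ± 7.31 SD, n = 3), within reach of the controls (log2 fold change 0.63, SE 0.72, edgeR FDR 0.899). Without control replicate 3 these log2 fold changes were 4.68 (FDR 0.140), 3.27 (FDR 0.673) and 1.99 (FDR 0.991). The order of the means was thus Neurod1, Neurod1 ΔUCE, Neurod1 ΔECD, Ascl1a and control. Neighbours in this order overlapped, except Neurod1 ΔECD and Ascl1a, whose fold change was not fitted.

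Full-length Neurod1 was also set against the other factors directly. Against Ascl1a the log2 fold change of scg3 was 3.60 (SE 0.77, edgeR FDR 0.233, DESeq2 FDR 2.11e-04), and the groups did not overlap. Neurod1 ΔECD differed from Neurod1 by -2.33 (SE 0.71, 95% interval -3.85 to -0.81), with an edgeR FDR of 0.910 and a DESeq2 FDR of 0.329. All 3 libraries of this form stood below all Neurod1 libraries. Neurod1 ΔUCE differed from Neurod1 by -0.92 (SE 0.67, 95% interval -2.35 to 0.51), with overlapping libraries. For both deleted forms together the difference was -1.46 (SE 0.59, edgeR FDR 1.00). None of these differences between Neurod1 forms passed the threshold.

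The convertase pcsk1 was at 0.456, 0.0869 and 4.28 CPM in controls. With Neurod1 it was at 7.16, 20.4, 6.75 and 6.73 CPM, so that each of the 4 libraries stood above each control. The log2 fold change was 2.66 (SE 1.44, 95% interval -0.39 to 5.71, edgeR FDR 1.00) and, without control replicate 3, 5.17 (SE 1.87, edgeR FDR 0.979). Control replicates 1 and 2 held 6 and 1 counts of pcsk1, so that the size of the latter value is uncertain. With Ascl1a, pcsk1 was at 0.116, 0 and 1.67 CPM, of which the first 2 libraries held 1 and 0 counts. Against Ascl1a the log2 fold change with Neurod1 was 4.12 (SE 1.59, 95% interval 0.76 to 7.49), with an edgeR FDR of 0.857 and a DESeq2 FDR of 0.149. The libraries of Neurod1 ΔUCE were spread, at 15.2, 0.412 and 4.17 CPM (log2 fold change against control 2.03, SE 1.45, edgeR FDR 0.860, and 4.54 without control replicate 3). With Neurod1 ΔECD pcsk1 was at 2.86, 0.129 and 0.319 CPM, below each Neurod1 library (log2 fold change -3.25, SE 1.48, 95% interval -6.40 to -0.11, edgeR FDR 0.910).

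With all libraries the partner convertase pcsk2 did not separate the groups. Its levels were 0.684, 0 and 11.7 CPM in controls, 1.21, 19.1, 8.03 and 2.94 CPM with Neurod1, and 3.14, 2.53 and 5.11 CPM with Ascl1a. With Neurod1 ΔUCE it was at 12.8, 1.89 and 5.07 CPM, and with Neurod1 ΔECD at 5.997, 1.61 and 0.717 CPM. Only control replicate 3 kept the controls within the range of the other groups. Without it, each Neurod1, Neurod1 ΔUCE, Neurod1 ΔECD and Ascl1a library stood above both remaining controls. For Neurod1 ΔECD this rested on scaling, since its replicate 3 and control replicate 1 held 9 counts each (0.717 and 0.684 CPM). In CPM scaled by total counts alone their order was reversed (0.757 and 0.782 CPM). Without control replicate 3 the log2 fold changes of pcsk2 were 4.46 with Neurod1 and 4.22 with Neurod1 ΔUCE. They were 2.90 with Neurod1 ΔECD and 3.36 with Ascl1a. None passed, with edgeR FDRs of 0.750 to 0.991. The remaining controls held 9 and 0 counts of pcsk2, so that the size of these values is uncertain. The chaperone of pcsk2, scg5 (ENSDARG00000032126), stayed between 0 and 2.22 CPM over the 16 libraries, with at most 27 counts in any of them. The second scg5 ID (ENSDARG00000077045) had 1 count in a single Neurod1 library and 0 in the other 15, and was not tested in this experiment.

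The calcium sensor scgn was spread within each transgenic group. It was at 0.152, 0.0869 and 3.73 CPM in controls and at 2.17, 16.05, 14.7 and 2.63 CPM with Neurod1. With Ascl1a it was at 26.3, 0 and 7.46 CPM, with Neurod1 ΔUCE at 11.1, 15.4 and 1.36 CPM, and with Neurod1 ΔECD at 15.7, 4.19 and 0.797 CPM. The means were higher than in controls by 5.21 to 8.51 times, but each group had a library no higher than the highest control. The log2 fold changes were 2.72 (SE 1.56) with Neurod1, 3.14 (SE 1.64) with Ascl1a, 2.75 (SE 1.62) with Neurod1 ΔUCE and 2.28 (SE 1.59) with Neurod1 ΔECD. None passed, with edgeR FDRs of 0.757 to 1.00. Without control replicate 3 they were 6.08, 6.49, 6.11 and 5.64, with edgeR FDRs of 0.758 to 0.991. The remaining controls held 2 and 1 counts of scgn, under the floor of 3 counts, so that the size of these values is uncertain. With voom on all libraries the value for Ascl1a was -0.32. Islet hormone transcripts varied between the same libraries, although the dissection was meant to leave out the pancreas. The insulin gene ins was at 205.9 and 168.4 CPM in Neurod1 replicates 2 and 3, at 4.27 and 0 CPM in replicates 1 and 4, and at 674.8 CPM in Neurod1 ΔUCE replicate 2. In Ascl1a replicate 1, the highest library for scgn, ins was at 9.08 CPM and the glucagon gene gcgb at 109.5 CPM. Neurod1 replicate 2 also held the highest scgn, pcsk1, pcsk2 and cpe of its group. Neurod1 ΔUCE replicate 2 held the highest scgn and cpe of its group and the lowest pcsk1 and pcsk2. The part of islet cells in the levels of scgn, pcsk1, pcsk2 and cpe was not tested.

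The trimming enzymes differed between themselves. The amidating enzyme pam was detected at a steady level, from 41.7 to 83.8 CPM in all 16 endodermal libraries, with means of 63.4 ± 14.3 CPM in controls (n = 3), 63.9 ± 7.31 CPM with Neurod1 (n = 4) and 55.1 ± 5.23 CPM with Ascl1a (n = 3). With Neurod1 ΔECD it was at 49.8, 43.0 and 53.2 CPM, below all controls and all Neurod1 libraries. In CPM scaled by total counts alone the libraries overlapped. There, Neurod1 ΔECD replicate 3 (56.2 CPM) stood above control replicate 2 (51.2 CPM) and Neurod1 replicate 3 (51.4 CPM). The difference of pam with Neurod1 ΔECD was small (log2 fold change -0.45 against control, SE 0.28, edgeR FDR 0.757, and -0.45 against Neurod1, SE 0.26, edgeR FDR 0.910). The carboxypeptidase cpe overlapped between all groups, at 11.1, 0.695 and 27.9 CPM in controls and at 4.99, 23.3, 18.3 and 15.3 CPM with Neurod1. With Ascl1a it was at 12.1, 1.27 and 6.19 CPM, with Neurod1 ΔUCE at 18.8, 27.6 and 2.72 CPM, and with Neurod1 ΔECD at 10.1, 3.03 and 4.14 CPM.

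The granins chga and scg2b were low in the endodermal cells, with at most 58 and 82 counts in any library. The level of chga was 0, 0.869 and 3.00 CPM in controls and 0.0849 to 4.67 CPM with Neurod1, where replicate 1 alone exceeded 0.446 CPM. The level of scg2b was 0.988, 0 and 3.00 CPM in controls, 1.04 to 4.75 CPM with Neurod1 and 0.272 to 6.75 CPM with Neurod1 ΔUCE. Both overlapped between controls and each transgenic group.

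**Figure D2:**
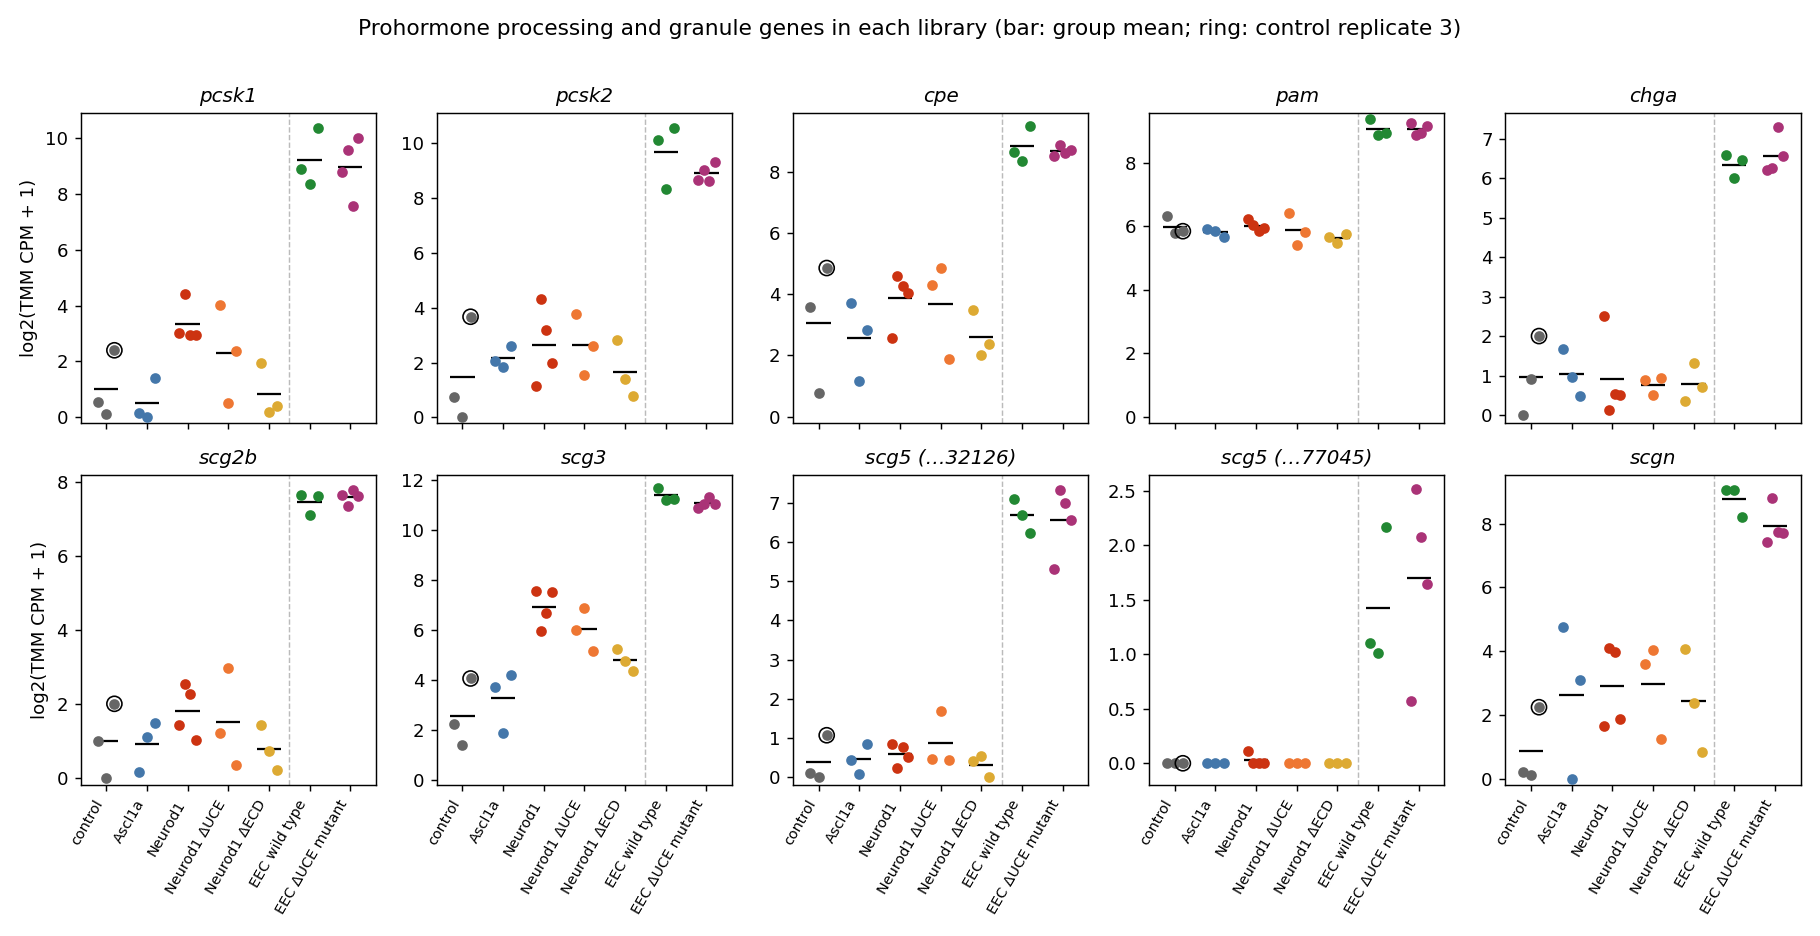
Level of each member gene ID in each of the 23 libraries, as log2(TMM CPM + 1), with 1 point per library, a bar at the group mean and a ring around control replicate 3. In the endodermal groups only scg3 forms a clear step, from 1.65 to 15.7 CPM in controls to 61.6 to 187 CPM with Neurod1, whereas all 10 IDs are higher in EECs.

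Counted over the list, no member passed edgeR's threshold with any transgene. With Neurod1, 0 of the 9 IDs tested passed, against 0.0423% of all 18911 features tested, and 1 of the 9 had an unadjusted p under 0.05, against 4.25% of all. DESeq2 and limma voom each called 1 member with Neurod1, which was scg3, against 0.395% and 0.0635% of all features. With Neurod1 ΔUCE edgeR called 0 of 9 (0.0582% of all) with 1 at an unadjusted p under 0.05 (7.11%), DESeq2 called scg3 (0.835%) and voom 0 (0.037%). With Neurod1 ΔECD edgeR, DESeq2 and voom called 0 of 9 (0.0423%, 0.257% and 0.19% of all), with 1 at an unadjusted p under 0.05 (6.13%). With Ascl1a the 3 tools also called 0 of 9 (0.0159%, 0.321% and 0.0106%), and 0 members had an unadjusted p under 0.05 (6.11%). Only scg3 was thus called in any of these comparisons, and not by each tool.

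In the direct comparison of Neurod1 with Ascl1a, edgeR called 0 of 9 members (0.037% of all), 2 had an unadjusted p under 0.05 (5.37%), and DESeq2 (0.557%) and voom (0.0687%) each called scg3. The members scg3 and pcsk1 did not overlap between these groups, 2 of 9 against 5.1% of all features. Between deleted and full-length Neurod1, edgeR, DESeq2 and voom called 0 members. Over all features these shares were 0%, 0.0599% and 0.00529% for Neurod1 ΔUCE, 0%, 0.074% and 0.00529% for Neurod1 ΔECD, and 0%, 0.102% and 0.0159% for both forms together. The numbers of members at an unadjusted p under 0.05 in edgeR were 0 for Neurod1 ΔUCE (2.62% of all), 2 for Neurod1 ΔECD (4.34%) and 1 for both forms together (3.93%). With Neurod1 ΔECD 3 members (scg3, pcsk1 and pam) stood below all Neurod1 libraries, against 3.06% of all features. For pam this held only with TMM. The median log2 fold change over the 9 IDs was -0.08 for Neurod1 ΔUCE and -1.49 for Neurod1 ΔECD against Neurod1, and the median over all features was 0.03 and -0.05.

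Against control, the median log2 fold change over the 9 IDs was 0.92 with Neurod1 and 1.01 with Neurod1 ΔUCE. It was -0.63 with Neurod1 ΔECD and -0.18 with Ascl1a. The median over all features was between -0.03 and 0.02 in these 4 comparisons, which share their controls. These values differed without control replicate 3. With all controls, 2 members (scg3 and pcsk1) were higher in each Neurod1 library than in each control, against 4.22% of all features. Without control replicate 3, 6 members were so, against 9.47% of all features, namely scg3, pcsk1, pcsk2, scgn, scg2b and scg5 (ENSDARG00000032126). Of these, scg5 held 2 counts in Neurod1 replicate 2 and 1 and 0 counts in the remaining controls, under the floor of 3 counts. For scg2b, Neurod1 replicate 4 (17 counts, 1.04 CPM) stood just above control replicate 1 (13 counts, 0.988 CPM). In CPM scaled by total counts alone this order was reversed (1.07 against 1.13 CPM).

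For Neurod1 ΔUCE the number that stood above all controls went from 1 (4.78% of all features) to 4 (8.27%) without this library. For Neurod1 ΔECD it went from 1 (11.3%) to 3 (16.1%), and for Ascl1a from 0 (6.17%) to 1 (9.31%). The 3 with Neurod1 ΔECD include pcsk2, which overlapped in CPM scaled by total counts alone. With Neurod1 ΔECD 1 member, pam, stood below all controls, against 7% of all features. In CPM scaled by total counts alone pam overlapped. The median log2 fold change over the 9 IDs became 3.44 with Neurod1, 4.22 with Neurod1 ΔUCE, 1.91 with Neurod1 ΔECD and 1.43 with Ascl1a, beside 0.01 to 0.05 over all features. The size of these medians is uncertain. The remaining controls held at most 10 counts of each of pcsk1, pcsk2, scgn, chga and scg5 (ENSDARG00000032126). At an unadjusted p under 0.05, edgeR then had 4 members with Neurod1 (4.69% of all features), 5 with Neurod1 ΔUCE (5.79%), 2 with Neurod1 ΔECD (4.26%) and 3 with Ascl1a (4.65%). Past the FDR threshold it had scg3 with Neurod1 (0.0308% of all features) and 0 members with Neurod1 ΔUCE (0.0154%), Neurod1 ΔECD (0.0154%) and Ascl1a (0.0103%).

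**Figure D3:**
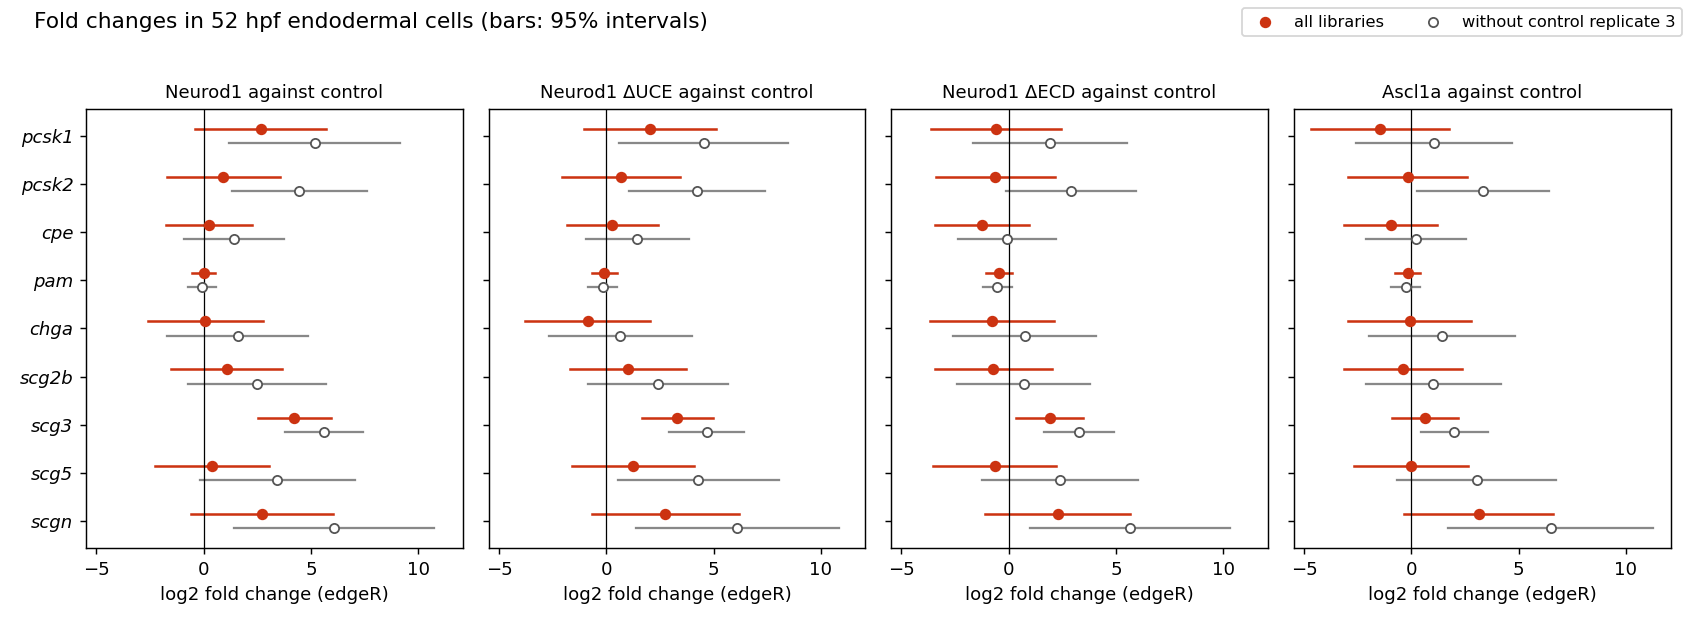
log2 fold change of the 9 member IDs tested in endodermal cells for each transgene against control (points) with 95% intervals (bars), with all libraries (filled) and without control replicate 3 (open). With all libraries the interval of scg3 lies above 0 with Neurod1 (2.55 to 5.91), Neurod1 ΔUCE (1.67 to 4.96) and Neurod1 ΔECD (0.34 to 3.46), and the other intervals span 0. Those of pam are the narrowest.

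The transcription factors were set beside the members. Of 12 endocrine transcription factors, 11 were tested. With Neurod1 edgeR called 2 of them, pax4 and insm1b (0.0423% of all features), and DESeq2 called 9 (0.395%). The median log2 fold change over the list was 3.68. The study had named pax4, rfx6, insm1a, insm1b, pax6b and nkx2.2a as induced by Neurod1 in these same libraries. Calls of these factors with Neurod1 were thus largely known beforehand and give no independent comparison with the members. The list holds neurod1 itself, which the authors counted without the reads shared with the transgene. The repressor insm1b was at 317.9, 106.3, 200.9 and 312.2 CPM with Neurod1 and at 13.2, 19.0 and 21.8 CPM in controls (log2 fold change 3.68, edgeR FDR 0.0208), without any overlap. The factor pax4 had 0 counts in all controls and was at 101.3, 11.5, 16.1 and 38.9 CPM with Neurod1 (edgeR FDR 0.0202). With Neurod1 ΔUCE edgeR called 1 factor (pax4, 0.0582% of all features) and DESeq2 6 (0.835%), with a median of 2.58. With Neurod1 ΔECD edgeR called 1 (pax4, 0.0423%) and DESeq2 2 (0.257%), with a median of 1.52. With Ascl1a edgeR called 0 of the 11 factors (0.0159%) and DESeq2 called 1 (0.321%). In edgeR 1 factor had an unadjusted p under 0.05 (6.11%), and the median was 0.55. The edgeR call of pax4 with Neurod1 was lost without control replicate 1 (FDR 0.124) or 2 (FDR 0.219), and that of insm1b without control replicate 1 (FDR 0.244), 2 (FDR 0.219) or 3 (FDR 0.138). The calls of pax4 with Neurod1 ΔUCE and Neurod1 ΔECD were lost when any 1 control was left out (FDRs of 0.147 to 0.173 and of 0.182 to 0.243), and with Neurod1 ΔECD also without its replicate 2 (FDR 0.12) or 3 (FDR 0.129). The medians of the factors without control replicate 3 were 3.82, 2.76, 2.41 and 1.51 with Neurod1, Neurod1 ΔUCE, Neurod1 ΔECD and Ascl1a.

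The wider machinery was counted on lists of related genes. The list called other granins holds chgb, vgf and pcsk1nl and, beside these, the precursors nucb2a and nucb2b. None of the genes tested for granule docking and exocytosis (28 IDs), granule membrane and formation (16), other convertases and trimming (13) or other granins (5) passed edgeR's threshold with any transgene. At an unadjusted p under 0.05 edgeR had 4 docking and exocytosis IDs and 1 ID of the other granins list with Neurod1 (4.25% of all features), beside 0 in the remaining lists. The docking and exocytosis IDs were 5 with Ascl1a (6.11%), 7 with Neurod1 ΔUCE (7.11%) and 3 with Neurod1 ΔECD (6.13%). These counts take higher and lower IDs together, so they do not show a shared direction. The median log2 fold changes of this list were -0.41, -0.19 and -0.65 with these 3 transgenes. Without control replicate 3 their signs were reversed, at 0.31, 0.52 and 0.14. At an unadjusted p under 0.05 edgeR then had 1, 5 and 1 IDs of this list (4.65%, 5.79% and 4.26% of all features). The medians of the first 3 lists with Neurod1 were -0.03, 0.16 and 0.22 on the log2 scale, beside 0.00 for all features, and that of the other granins was 1.30. They were 0.77, 0.76 and 0.37 without control replicate 3, and 1.16 for the other granins, again with 0 edgeR calls and 5, 1, 0 and 2 IDs at an unadjusted p under 0.05. DESeq2 called 3 genes of these lists with Neurod1, which are named because they passed there. The small GTPase rab3da, which acts in granule docking, was at 9.18, 6.79, 4.33 and 8.69 CPM against 0.684, 0.608 and 0.795 CPM in controls (log2 fold change 3.34, SE 0.85, edgeR FDR 0.457, DESeq2 FDR 0.00479). With Ascl1a rab3da was at 3.73, 2.41 and 2.55 CPM. Its levels were 6.40, 0.823 and 1.99 CPM with Neurod1 ΔUCE and 3.58, 0.258 and 2.31 CPM with Neurod1 ΔECD. The calcium sensor of exocytosis syt5b was at 5.72, 5.01, 2.80 and 4.90 CPM against 0.532, 0 and 0.917 CPM (log2 fold change 3.20, SE 0.90, edgeR FDR 0.622, DESeq2 FDR 0.00546). With Ascl1a syt5b was at 2.21, 1.27 and 2.26 CPM. Its levels were 1.88, 4.12 and 0.997 CPM with Neurod1 ΔUCE and 1.71, 3.42 and 0.957 CPM with Neurod1 ΔECD. The secreted precursor nucb2b was at 89.3, 40.4, 44.7 and 57.6 CPM against 27.0, 23.8 and 16.6 CPM (log2 fold change 1.34, SE 0.34, edgeR FDR 0.457, DESeq2 FDR 0.0466).

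With Ascl1a, DESeq2 called the SNARE gene snap25b lower (DESeq2 FDR 0.0848), at 0, 0.253 and 0.491 CPM against 2.89, 0 and 28.9 CPM in controls, where the high value is again replicate 3. With Neurod1 ΔUCE it called nucb2b (72.7, 37.0 and 54.1 CPM, DESeq2 FDR 0.0783). With Neurod1 ΔECD nucb2b was not called, although it was at 44.8, 40.4 and 62.5 CPM, also above the controls. Between Neurod1 and Ascl1a DESeq2 called nucb2b (DESeq2 FDR 0.0531) and vgf, a granin family precursor, at 5.96, 0, 0.637 and 4.65 CPM with Neurod1 and 0 counts in the 3 Ascl1a libraries.

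Likeness over the 16 endodermal libraries was described by Pearson's r of log2(CPM + 1), with the 3 genes most like each member among the 18911 tested. These libraries share groups and depth, so r is a description only. Of the genes named below, OPRD1, KBTBD11, AHSA1, FRMD5, LHX4, NEXMIF and b3galt11 had means of only 0.393 to 0.898 CPM. Their r rests on few counts. The nearest genes of scg3 were ABCC8, a subunit of the ATP-sensitive potassium channel (r = 0.93), trpc4a (r = 0.89) and c2cd4a (r = 0.89). Those of pcsk1 were rem2 (r = 0.86), OPRD1 (r = 0.84) and KBTBD11 (r = 0.83). The gene nearest to scgn was the glucagon gene listed as GCG (ENSDARG00000040907, r = 0.90), followed by si:dkey-153k10.9 (r = 0.85) and map3k14b (r = 0.85).

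The nearest gene of scg2b was pcsk1nl, a proSAAS-type granin (r = 0.91), followed by tspan7b (r = 0.88) and NEXMIF (r = 0.86). For cpe they were si:dkey-153k10.9 (r = 0.87), WHRN (r = 0.85) and RAB11FIP4 (r = 0.85). For pcsk2 they were TMX2 (r = 0.86), AHSA1 (r = 0.76) and FRMD5 (r = 0.75). For scg5 (ENSDARG00000032126) they were NATD1 (r = 0.83), b3galt11 (r = 0.83) and si:dkey-9l20.3 (r = 0.80). For chga they were LHX4 (r = 0.82), ZMIZ1 (r = 0.78) and ENSDARG00000099194 (r = 0.78). For pam they were usp19, MBD5 and DDIT3 (r = 0.93, 0.92 and 0.92). No member was among the 3 nearest genes of another.

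Wild-type EECs showed what the full program looks like. All 10 IDs were called higher in EECs than in control endoderm in a fit of all 23 libraries, where edgeR called 16.1% of 20397 features higher. DESeq2 and voom called all 10 as well, against 13.2% of all features higher with DESeq2 and 47.5% in either direction with voom. No libraries of these groups overlapped for any member, which held for 20.5% of all features. The median log2 fold change was 7.76 over the members and -0.19 over all features. Neuron markers, many of which endocrine cells share, summed to 728.3 to 1196 CPM in wild-type EECs against 13.1 to 358.4 CPM in controls, and exocrine pancreas markers to 18.2 to 393.2 CPM against 0.695 to 6.79 CPM, and their part in the member levels was not tested. Stage, sorted reporter, tissue and heat shock differ together between these groups and cannot be told apart. The smallest change was that of pam, at 663, 467 and 491 CPM in EECs (8.52-fold, log2 fold change 3.11, SE 0.30, edgeR FDR 5.94e-07).

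With all controls the largest changes were those of pcsk1, scg3 and scgn, whereas without control replicate 3 scgn (11.77), pcsk2 (11.42) and pcsk1 (11.28) led on the log2 scale, and scg3 (9.96) came after scg5 (ENSDARG00000032126, 11.04). The remaining controls held few counts of scgn, pcsk2, pcsk1 and scg5, so that this second order is uncertain. The convertase pcsk1 was at 471, 326 and 1329 CPM in EECs (441-fold, log2 fold change 8.76, SE 1.58, edgeR FDR 3.57e-04). The granin scg3 was at 3252, 2365 and 2420 CPM (382-fold, log2 fold change 8.59, SE 0.88, edgeR FDR 9.70e-07). The sensor scgn was at 535, 533 and 296 CPM (344-fold, log2 fold change 8.39, SE 1.70, edgeR FDR 0.00101). Of the others, pcsk2 was at 1114, 318 and 1521 CPM (238-fold), scg5 (ENSDARG00000032126) at 137, 103 and 74.0 CPM (266-fold), and scg2b at 201, 138 and 194 CPM (134-fold). The level of chga was 94.1, 62.8 and 86.5 CPM (63.0-fold) and that of cpe 400, 324 and 709 CPM (36.1-fold). The second scg5 ID (ENSDARG00000077045) was at 1.15, 1.02 and 3.48 CPM in EECs and at 0 counts in controls, which makes it at least 8.15-fold higher, taken against the floor of 3 counts per library. Without control replicate 3 all 10 IDs were called, against 30.4% of all features in either direction.

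The related lists were also higher in EECs. Of the granule docking and exocytosis genes, 23 of 37 IDs tested were called higher and 0 lower (median log2 fold change 3.21). Of the granule membrane and formation genes 13 of 17 were higher and 1 lower (median 3.38), of the other granins 3 of 5 were higher (median 3.33), and of the other convertases and trimming enzymes, many of which act in all cells, 4 of 14 were higher and 2 lower (median 0.23). The 5 with the lowest p were the granule membrane phosphatase-like proteins ptprna (506 against 3.08 CPM, log2 fold change 7.36, SE 0.79) and ptprnb (311 against 1.82 CPM, 7.41, SE 0.93), nucb2b (223 against 22.5 CPM, 3.33, SE 0.37), rab3db (35.5 against 0.767 CPM, 5.53, SE 0.70) and the calcium sensor syt1a (406 against 8.40 CPM, 5.61, SE 0.71).

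Neurod1-induced endoderm remained far from this level. All 10 IDs were called lower with Neurod1 than in wild-type EECs, where edgeR called 17.5% of 20397 features lower. DESeq2 and voom called all 10 as well, against 14.3% of all features lower with DESeq2 and 49.1% in either direction with voom. No libraries overlapped for any member, which held for 18.4% of all features. The median log2 difference was -5.93 over the members and 0.21 over all features. For scg3, the member nearest to a call with Neurod1, the log2 difference was -4.35 (SE 0.65, edgeR FDR 4.27e-05), a 20.2-fold lower mean. For pam it was -3.09 (SE 0.27), for cpe -4.96 (SE 0.89), and for scgn -5.69 (SE 1.32). For pcsk1 it was -6.12 (SE 1.23), for pcsk2 -6.99 (SE 1.204), for chga -5.87 (SE 1.04), for scg2b -5.99 (SE 0.98) and for scg5 (ENSDARG00000032126) -7.61 (SE 0.99).

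In the lists, 21 of 37 docking and exocytosis IDs were lower with Neurod1 than in EECs and 1 higher, and 13 of 17 membrane and formation IDs were lower and 1 higher. Of the other granins 3 of 5 were lower, and of the other convertases and trimming enzymes 4 of 14 were lower and 2 higher. The 5 with the lowest p were ptprnb (1.36 against 311 CPM, log2 difference -7.84, SE 0.83), ptprna (8.33 against 506 CPM, -5.94, SE 0.65), syt1a (9.71 against 406 CPM, -5.40, SE 0.62), the SNARE gene snap25a (5.42 against 108 CPM, -4.33, SE 0.54) and cplx2, a complexin that clamps granule fusion (7.96 against 320 CPM, -5.34, SE 0.70).

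**Figure D4:**
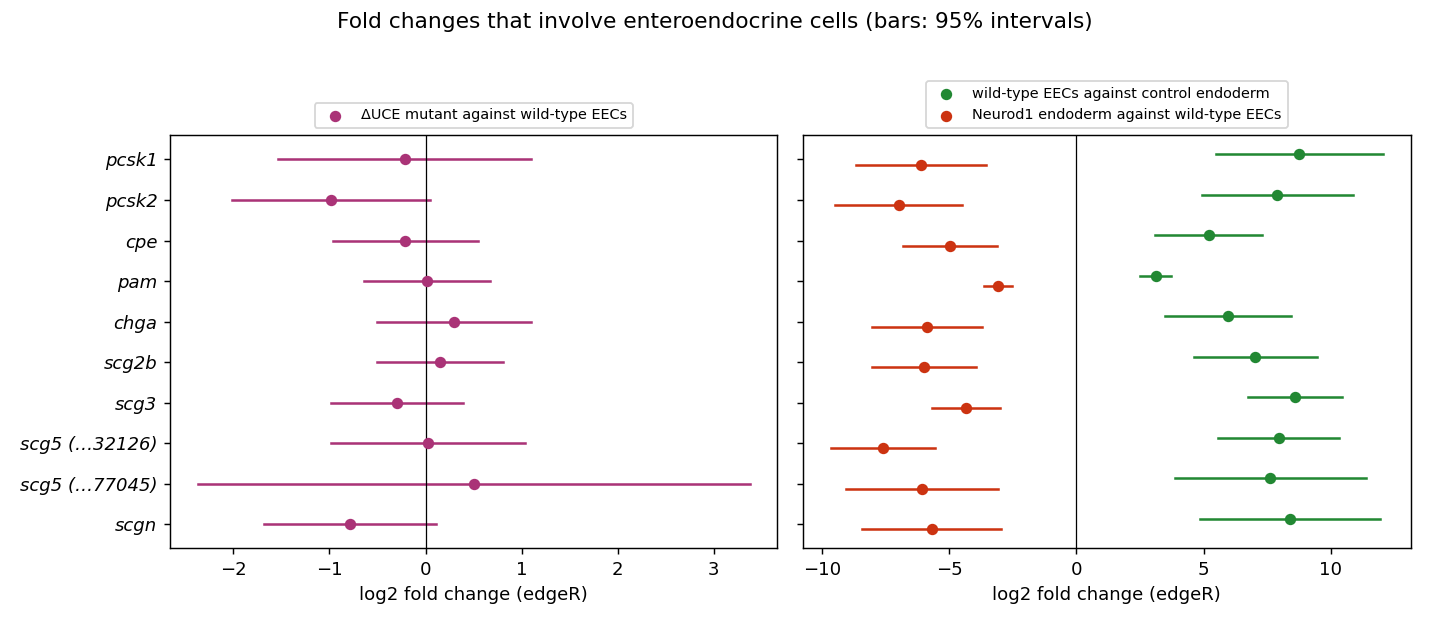
log2 fold change of the 10 member IDs (points) with 95% intervals (bars), for mutant against wild-type EECs (left) and for wild-type EECs against control endoderm and Neurod1 endoderm against wild-type EECs (right). Each interval on the left spans 0, with pcsk2 at -0.99 and scgn at -0.79 as the lowest, while those on the right lie wholly on 1 side of 0.

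The last question was whether the machinery was kept in the mutant EECs. No member passed in this comparison. EdgeR called 0 of 10 IDs, against 0.0186% of 16154 features, with 0 at an unadjusted p under 0.05 (3.7% of all), and DESeq2 (0.37% of all) and voom (0.136% of all) also called 0. The median log2 fold change was -0.10 over the members and 0.02 over all features, and all members overlapped between mutant and wild-type libraries. Over all features, 3.1% were higher and 3.57% lower in each mutant library than in each wild-type library. Mutant replicate 3 stood apart in islet markers, which summed to 1499 CPM against 334.5 to 618.2 CPM in the wild type. Its somatostatin gene sst1.2 was at 890.7 CPM, against at most 6.49 CPM in the other EEC libraries. The islet markers were not all raised there, with gcgb at 105.6 CPM but ins at 0 CPM. This library also held the highest scg3, chga and scg2b and the lowest pcsk1 and pcsk2 of the mutants. For pcsk2 the margin was narrow (396 CPM against 403 CPM in mutant replicate 1). The part of islet cells in these levels was not tested, and 0 members were called when each EEC library was left out in turn.

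The intervals set the size of change that could have been missed. The granin scg3 was at 1873, 2064, 2563 and 2115 CPM in mutants, against 2365 to 3252 CPM in the wild type (log2 fold change -0.30, SE 0.31, 95% interval -0.99 to 0.39). The amidating enzyme pam was at 606, 473, 494 and 576 CPM (0.01, SE 0.30, interval -0.64 to 0.67). The granin scg2b was at 201, 161, 221 and 198 CPM (0.15, SE 0.30, interval -0.50 to 0.81). For chga the mutant libraries were at 72.3, 75.0, 155 and 92.6 CPM (0.30, SE 0.36, interval -0.50 to 1.098). For cpe they were at 366, 460, 390 and 416 CPM (-0.21, SE 0.34, interval -0.96 to 0.54). Over these 5 members the intervals stayed between -0.99 and 1.098.

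The lowest log2 fold changes were those of pcsk2 and scgn. The convertase pcsk2 was at 403, 517, 396 and 642 CPM in mutants, and the wild-type libraries at 1114, 318 and 1521 CPM lay on both sides (log2 fold change -0.99, SE 0.47, interval -2.02 to 0.04, edgeR FDR 1.00, DESeq2 FDR 0.716). The sensor scgn was at 171, 447, 214 and 209 CPM (log2 fold change -0.79, SE 0.40, interval -1.68 to 0.10, edgeR FDR 1.00, voom FDR 0.449). For pcsk2 wild-type replicate 2 stood below all mutants while the other wild-type libraries stood above them, and for scgn mutant replicate 2 was the only mutant within the wild-type range.

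The other members had wide intervals. The level of pcsk1 was 437, 761, 191 and 1017 CPM in mutants (log2 fold change -0.22, SE 0.60, interval -1.54 to 1.099). That of scg5 (ENSDARG00000032126) was 38.5, 161, 126 and 93.9 CPM (0.02, SE 0.46, interval -0.98 to 1.03), and that of scg5 (ENSDARG00000077045) 0.484, 4.73, 3.22 and 2.12 CPM (0.50, SE 1.30, interval -2.37 to 3.37). In the related lists edgeR and DESeq2 called 0 of the 34 docking and exocytosis, 16 membrane and formation, 13 other convertase and 5 other granin IDs. At an unadjusted p under 0.05 there were 2, both of the membrane and formation list. The medians of the 4 lists were 0.18, -0.02, 0.14 and -0.17.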

How the data were processed

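RNA of sorted cells was made into Smart-seq2 libraries (13 PCR cycles, 75-base single-end reads, no molecular identifiers). The authors mapped the reads with STAR 2.5.4b to GRCz11 and deposited counts per gene, without normalization, in 1 file per library. The strand setting of the counting is not given in the sources used here, so overlapping genes and close paralogs are uncertain. IDs were paired with symbols through the study's gene names and a gene table (29194 of 31902), and no coordinates or sequences are given.

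The tests were run with edgeR 4.0.16 in R 4.3.3 (TMM, filterByExpr, quasi-likelihood test), with 1 fit for the 16 endodermal libraries (18911 features), 1 for the 7 EEC libraries (16154) and 1 for all 23 (20397). P-values were adjusted by the Benjamini-Hochberg method over all features, and features with an FDR up to 0.1 count as called. The study applied this threshold to DESeq2, whereas the main calls here are those of edgeR, which called fewer features. For Neurod1 against control edgeR called 8 and DESeq2 112. The study's EEC comparison also used wild-type libraries of an earlier study, which are not among these 23. EEC mutant calls also needed a mean above 10 CPM. Standard errors come from the F statistic. Levels are TMM CPM over all 23 libraries. Total counts per library (8364374 to 22301304) set the precision, and floors cover counting error only. No libraries were identical or agreed within sampling noise. P-values measure the spread between separate preparations of pooled animals.

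The alternatives were DESeq2 1.42.0, limma 3.58.1 voom with quality weights, robust edgeR, RLE, no filter, a replicate block, other sets of libraries, an FDR of 0.05, each library left out in turn, and CPM scaled by total counts alone. The counts of non-overlapping members without control replicate 3 were added after its markers were seen. The edgeR, DESeq2 and voom fits were tested on simulated data for Neurod1 against control and for mutant against wild-type EECs. The fit of all 23 libraries and the other alternatives were not tested in this way. The text names all members, related genes past the threshold (the 5 with the lowest p where more passed) and the 3 genes most like each member. Genes called by DESeq2 alone, and the hormones and transcription factors, were named after their values were seen. The members and lists were chosen with earlier results of these data known. Symbols were matched as written, in capitals or, where needed, without the paralog letter.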

Additional observations from a re-analysis of the deposited data

Results flagged for a closer look

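In groups of 4 libraries the gap of a value to the nearest of the others was set against the group's range. A value was singled out when this share exceeded Dixon's 95% critical value. For normally distributed values this happens in about 1 in 20 groups. Here 4 of 20 groups were singled out, but CPM of genes with few counts need not be normal, so these rates cannot be compared. In the Neurod1 group, pcsk1 stood at 20.4 CPM in replicate 2 (gap of 0.968 of the range), and chga at 4.67 CPM in replicate 1 (0.921). The second scg5 ID (ENSDARG00000077045) had its only count of the endodermal libraries in Neurod1 replicate 1, which by itself makes the gap 1. In mutant EECs, scgn stood at 447 CPM in replicate 2 (0.846).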

How the results depend on the processing

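The number of members called depended on the tool in 3 comparisons, and scg3 was the member in each. For Neurod1 against control it was 1 in place of 0 with DESeq2, with limma voom, with no filter on low counts and with all 23 libraries in one fit, and 0 to 1 when each library was left out. For Neurod1 against Ascl1a it was 1 with DESeq2, with voom and with all 23 libraries in one fit. For Neurod1 ΔUCE against control it was 1 with DESeq2 and with all 23 libraries in one fit. The cause was not tested. The other 89 recounts, with libraries left out set aside, stayed within 1.5 times the main count.

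Some estimates changed sign without any call. With voom the log2 fold change of scgn with Ascl1a was -0.32 in place of 3.14, and the cause was not tested. In mutant EECs, where the estimates were close to 0, it was with voom 0.69 for pcsk1, 0.11 for cpe, -0.037 for pam and -0.23 for scg5 (ENSDARG00000032126). With all 23 libraries in one fit pam was at -0.0064. When each EEC library was left out in turn, pcsk1 ranged from -0.59 to 0.62, cpe from -0.42 to 0.20, pam from -0.077 to 0.17 and scg5 (ENSDARG00000032126) from -0.25 to 0.30. The call of pax4 with Neurod1 was also lost with voom (FDR 0.239) and with only the groups compared (FDR 0.124). With Neurod1 ΔUCE the pax4 call was lost with voom (FDR 0.462), with only the groups compared (FDR 0.308) and with the replicate block (FDR 0.138). With Neurod1 ΔECD it was lost with voom (FDR 0.183) and with the replicate block (FDR 0.153).

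The replicate numbers of the labels do not mark shared animals, and no groups compared with each other had a correlation over 0.1 in each same-numbered pair (r from -0.47 to 0.57 over 30 pairs in endoderm and from -0.16 to 0.03 over 3 pairs in EECs). Neurod1 ΔUCE and Neurod1 ΔECD, which were not compared with each other, had r of 0.32, 0.57 and 0.35. With the replicate number as a block, 0 members were called in the 9 comparisons that had 0, and 10 in both comparisons with EECs across stages. The block put pam at -0.015 and scg5 (ENSDARG00000032126) at -0.071 in mutant EECs. CPM without TMM moved no group mean of a member by more than its SD. It did reverse the order of single libraries that stood close together, as given above for pam, pcsk2 and scg2b. In endoderm chga, scg2b and scg5 (ENSDARG00000032126) held at most 58, 82 and 27 counts in a library, so that counting error is part of their spread.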
